A study of Mus musculus with 12 samples.

Results

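Mast cell genes of whole mouse embryos at E12.5 are described here, as 10 of the 23420 genes listed in each count table. They are Cpa3, Cma1, Mcpt4, Mcpt8, Tpsb2 and Tpsab1, which code for granule proteases, Ms4a2 and Fcer1a, which code for chains of the high-affinity IgE receptor, Hdc, which codes for the enzyme that makes histamine, and Gata2, which codes for a transcription factor. The genes were chosen by their higher counts in embryos without Carm1, so their values in that comparison are given as a description with no test. The comparison of the Pax3 line was not used to select them.

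RNA came from homogenized whole embryos, and each embryo gave 1 poly(A)-selected library. In the Carm1 line, on C57BL/6, 3 homozygous null embryos (Carm1 KO/KO, the Carm1tm1Mtb allele) were compared with 3 wild-type embryos. In the Pax3 line, a closed colony on a background mixed from the strains C3H/He, CBA/Ca and 101, 3 homozygous Splotch embryos (Pax3 Sp2H/Sp2H, from the Pax3Sp2h allele) were compared with 3 wild-type embryos. Both alleles are carried in the germline, so every cell of a mutant embryo lacks the functional gene, and all embryos came from crosses of heterozygous parents. Strain, colony and line cannot be told apart, so levels set side by side across the lines are descriptive.

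Mast cells arise from haematopoietic progenitors, leave the blood as immature cells and mature in tissues under Kit ligand, where they store proteases, histamine and serotonin in granules held together by serglycin. Their chymases and tryptases are serine proteases, and carboxypeptidase A3 is a metalloprotease stored beside them. Binding of antigen to IgE held by the receptor releases the granules. Basophils, a related blood cell, share the receptor and Hdc and make Mcpt8, while Gata2 is also made in blood progenitors, endothelium and neurons.

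The 12 libraries held between 17183344 and 23518692 counts, and across genes the replicates of a group correlated at 0.992 to 0.996 in log2 CPM (counts scaled to a library of 1000000). Carm1 itself was at 73.3 ± 3.57 CPM in Carm1 KO/KO embryos and at 146 ± 7.16 CPM in their wild-type controls (SD, n = 3), and Pax3 was at 20.5 ± 2.34 CPM in Pax3 Sp2H/Sp2H embryos and 27.8 ± 3.06 CPM in theirs. Both transcripts were thus lower and still present in the mutants (edgeR adjusted P = 1.2e-15 and 0.0014). Y-linked genes had 4447 to 6118 counts in 4 libraries and at most 23 in the others. Of the 6 libraries of the Carm1 line only wild-type replicate 3 had them, so its values are given separately where they bear on a member. In whole embryos a change in the number of mast cells and a change in the RNA of each cell cannot be told apart.

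The members lie on 7 chromosomes in GRCm38, the build of the counts (mm10), and include 2 gene clusters. Cma1 (chr14:55941451-55944675), Mcpt4 (chr14:56059629-56062313) and Mcpt8 (chr14:56082166-56085273) lie in 1 protease cluster on the minus strand of chromosome 14. Tpsab1 (chr17:25343245-25345562, minus strand) and Tpsb2 (chr17:25366305-25369098, plus strand) form the tryptase pair on chromosome 17. Cpa3 lies alone at chr3:20215620-20242181 and Ms4a2 at chr19:11615523-11623719, while Fcer1a is at chr1:173221284-173227214, Hdc at chr2:126593667-126619299, all on the minus strand, and Gata2 at chr6:88193891-88207032 on the plus strand. No exon of a member overlaps an exon of another annotated gene. No stretch of 150 bases, the length of 1 read, in a member transcript was identical to one in another gene. At 50 bases, 5.48% of the windows of Mcpt4, 5.38% of those of Cma1 and 2.1% of those of Ms4a2 had a copy in another gene, and how the authors treated reads that align to several places is not given in the sources used here.

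GATA factors bind the letters GATA with flanking bases, and GATA1 and GATA2 are known to act in mast cells, so the promoters of 4 members are shown with GATA preceded by A or T and followed by A or G, or the reverse complement of these letters, in capitals. Each sequence is the RefSeq sequence of the 250 bases before the annotated start (GRCm38.p6), read 5′ to 3′ on the strand of the gene. The positions are chr3:20242182-20242431 for Cpa3, chr14:55944676-55944925 for Cma1, chr14:56062311-56062560 for Mcpt4 and chr19:11623720-11623969 for Ms4a2, all on the minus strand.
Cpa3: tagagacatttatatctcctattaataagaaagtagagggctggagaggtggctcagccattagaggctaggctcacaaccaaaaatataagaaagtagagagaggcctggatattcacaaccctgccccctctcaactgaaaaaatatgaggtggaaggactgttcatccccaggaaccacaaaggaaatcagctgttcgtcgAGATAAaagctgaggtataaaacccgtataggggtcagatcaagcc
Cma1: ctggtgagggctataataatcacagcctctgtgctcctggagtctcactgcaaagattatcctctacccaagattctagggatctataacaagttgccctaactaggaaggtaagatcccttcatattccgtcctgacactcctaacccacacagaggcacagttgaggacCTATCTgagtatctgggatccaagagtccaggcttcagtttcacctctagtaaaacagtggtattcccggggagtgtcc
Mcpt4: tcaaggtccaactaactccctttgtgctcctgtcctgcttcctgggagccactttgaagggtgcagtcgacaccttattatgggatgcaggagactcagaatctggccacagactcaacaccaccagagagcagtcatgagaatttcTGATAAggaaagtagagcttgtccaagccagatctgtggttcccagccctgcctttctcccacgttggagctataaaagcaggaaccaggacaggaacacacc
Ms4a2: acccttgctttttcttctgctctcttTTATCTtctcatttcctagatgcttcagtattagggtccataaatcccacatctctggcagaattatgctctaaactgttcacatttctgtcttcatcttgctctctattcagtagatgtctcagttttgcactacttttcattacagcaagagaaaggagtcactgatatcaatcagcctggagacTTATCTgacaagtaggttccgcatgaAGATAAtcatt

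In these 4 promoters the matches begin at position -46 from the start in Cpa3, at -79 in Cma1, at -103 in Mcpt4, and at -224, -37 and -11 in Ms4a2. Counting a window of 250 bases before and 50 after the start on both strands, 6 of the 8 members with a RefSeq promoter (Cpa3, Cma1, Mcpt4, Ms4a2, Fcer1a and Hdc) held such a match, against 29.8% of the 32851 mouse promoters of the same length. Mcpt8 and Gata2 held none. The letters TGTGGT, which RUNX factors bind, were in 5 of the 8 and in 16.8% of all promoters. TATAAA, the letters of the TATA box, was at any position in 3 of the 8 and in 13.6% of all promoters. On the strand of the gene it began at -31 in Cpa3, at -32 in Mcpt4 and at -125 in Fcer1a. The E-box bound by MITF, with the letters CACGTG and in its other form CATGTG, was in 1 of the 8 against 20.4%, and GAGGAA, bound by ETS factors, in 2 of the 8 against 28.3%. The promoters of 3 members, Cpa3, Mcpt4 and Fcer1a, held the GATA, RUNX and TATA letters together. A match of letters is a description of the sequence and not a site at which binding was measured.

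Carm1 KO/KO embryos had more counts of most of the protease genes than their wild-type controls. Cpa3, which codes for carboxypeptidase A3, had 175, 170 and 158 counts in the 3 KO/KO embryos of the Carm1 line. Their wild-type controls had 33, 57 and 69. The lowest KO/KO library thus lay above the highest wild-type library by more than the whole range of either group. Scaled to library size, Cpa3 was at 9.61 ± 0.159 CPM against 2.63 ± 0.722 CPM, a log2 fold change of 1.86 (SE 0.16), or 3.62-fold. Without wild-type replicate 3 the log2 fold change was 2.08.

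Cma1, which codes for the chymase of connective tissue mast cells, had 51, 45 and 45 counts in KO/KO libraries and 9, 8 and 2 in wild-type libraries. The groups did not overlap, and the smallest wild-type count came from replicate 3. The level was 2.7 ± 0.142 CPM against 0.33 ± 0.222 CPM, a log2 fold change of 3.05 (SE 0.37), or 8.3-fold. Without wild-type replicate 3 it was 2.62 and without wild-type replicate 1 it was 3.51.

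Both tryptases were rarer. Tpsb2, the main tryptase of mouse mast cells, had 13, 12 and 6 counts in KO/KO libraries and 0 in every wild-type library of the line. Against a floor of 3 counts over the wild-type group, its ratio was 11.8. Tpsab1, its neighbour, had 1, 2 and 3 counts in KO/KO and 0, 0 and 1 in wild-type libraries, a ratio of 6.86 with a 95% counting interval of 0.833 to 316 that includes no difference. Such intervals cover counting error only. A floor bounds the wild-type 0 and takes the KO/KO count as exact, so a ratio against it is not a lower limit.

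The other 2 chymase-locus genes were rare. Mcpt4, a chymase of connective tissue mast cells, had 2, 3 and 5 counts in KO/KO libraries and 0 in wild-type libraries. Its ratio against the same floor was 3.81. Mcpt8, a basophil protease, had 0, 3 and 2 counts against 0, 2 and 0. Its groups overlapped, and its ratio of 2.86 had a counting interval of 0.468 to 30.0. At this depth no difference was detectable for Mcpt8.

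The IgE receptor genes differed from each other. Ms4a2, which codes for the beta chain that amplifies the signal of the receptor, had 18, 12 and 10 counts in KO/KO libraries and 2, 5 and 5 in wild-type libraries. All 3 KO/KO values were above all wild-type values, at 0.761 ± 0.214 CPM against 0.195 ± 0.0664 CPM, a log2 fold change of 1.90 (SE 0.53). Fcer1a, the IgE-binding alpha chain that defines the receptor, had 0 counts in each of the 12 libraries, which allows up to 3 counts per library. Mrgprb1 and Mrgprb2, receptors of mature connective tissue mast cells that were named after their values were seen, also had 0 counts in all 12. The label of the group as mast cell genes thus rests mainly on the proteases other than Mcpt8, and by counts mostly on Cpa3. Of the summed counts of the protease and receptor members, Cpa3 held 67.3% to 69.0% in KO/KO libraries. Which cells made these transcripts was not measured. Basophils share the receptor to which Ms4a2 belongs, and Fcer1a, Mrgprb1 and Mrgprb2 were not detected.

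Hdc, the enzyme of histamine synthesis, had 76, 92 and 84 counts in KO/KO libraries and 54, 47 and 90 in wild-type libraries. In CPM the KO/KO libraries ranged from 4.23 to 5.23 and the wild-type libraries from 2.05 to 4.44, so the groups overlapped at wild-type replicate 3. The log2 fold change was 0.58 (SE 0.21), with 0.90 when that library was left out and 0.31 without wild-type replicate 2.

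Gata2, which codes for a factor of haematopoietic progenitors and mast cells, was the most abundant member in CPM and had the smallest fold change of the 5 members that could be fitted. Its counts were 558, 524 and 443 in KO/KO and 413, 535 and 491 in wild-type libraries. Scaled to library size the groups separated, at 26.5 to 31.1 CPM against 23.3 to 24.8 CPM, with a log2 fold change of 0.27 (SE 0.08).

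In all, 7 of the 10 members had every KO/KO library above every wild-type library in CPM, and 14.4% of the 15811 genes in the test of this line did so, but the members were selected on this difference and the count is only a description of them. For Tpsab1 the separation rests on library size alone, since its lowest KO/KO and its highest wild-type library both held 1 count. Only 5 members (Cpa3, Cma1, Ms4a2, Hdc and Gata2) passed the filter on low counts. The 14.4% therefore does not cover the other 5, which are described by their raw counts.

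**Figure D1:**
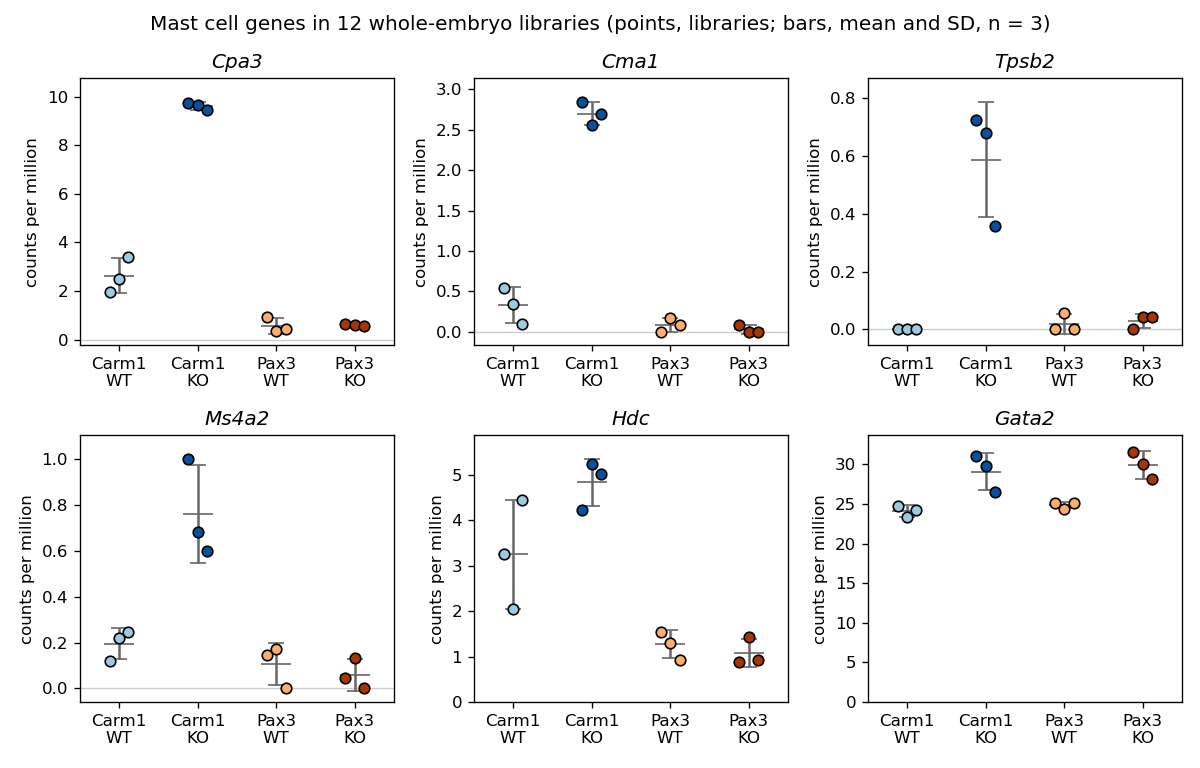
CPM (y axis) of 6 members in the 4 groups (x axis), with 1 point for each library and bars for the mean and SD of 3. Cpa3, Cma1, Tpsb2 and Ms4a2 are highest in all 3 Carm1 KO libraries, Hdc overlaps between the groups of the Carm1 line, and Gata2 is higher in the mutants of both lines.

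Levels of members were set side by side after division by exon length, the joined length of all annotated exons of a gene. A transcript that leaves out some of these exons is shorter, so the order of members is approximate. In Carm1 KO/KO embryos Cpa3 was highest, at 6.34 ± 0.105 CPM per kilobase, followed by Gata2 at 5.39 ± 0.441 and Cma1 at 2.47 ± 0.13. Hdc was at 0.755 ± 0.082 CPM per kilobase, Tpsb2 at 0.369 ± 0.125 and Ms4a2 at 0.27 ± 0.076, and the last 2 did not differ beyond their spread. In the wild-type embryos of the same line the order was Gata2 (4.47 ± 0.138), Cpa3 (1.73 ± 0.476), Hdc (0.508 ± 0.187) and Cma1 (0.302 ± 0.203), where the SDs of Hdc and Cma1 overlapped. By this length Cpa3 stood above Gata2 per kilobase in KO/KO and below it in wild-type embryos. The order in KO/KO embryos depends on the length taken for Gata2.

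The 8 protease and receptor members summed to 14.5, 14.0 and 13.7 CPM in the 3 KO/KO embryos of the Carm1 line, against 2.64, 3.14 and 3.8 CPM in their controls. These sums rest on 736 and 193 counts. Cpa3 made up 67.3% to 69.0% of the counts in the KO/KO libraries and 75.0% to 89.6% in the wild-type libraries. Between 8 and 9 of the 10 members were detected in a KO/KO library, and between 5 and 6 in a wild-type library.

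The balance of chymase and carboxypeptidase was even among the KO/KO embryos and uneven among the wild types. Cma1 was 22.6%, 20.9% and 22.2% of the summed counts of Cma1 and Cpa3 in the KO/KO libraries. In the wild-type libraries it was 21.4% (exact 95% binomial interval 10.3% to 36.8%), 12.3% (5.47% to 22.8%) and 2.82% (0.343% to 9.81%). The lowest share belonged to replicate 3, the library with Y-linked counts and with the most Cpa3 and Hdc of the 3. The part of that library's sex in the difference was not tested, since the line has 1 such library.

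**Figure D2:**
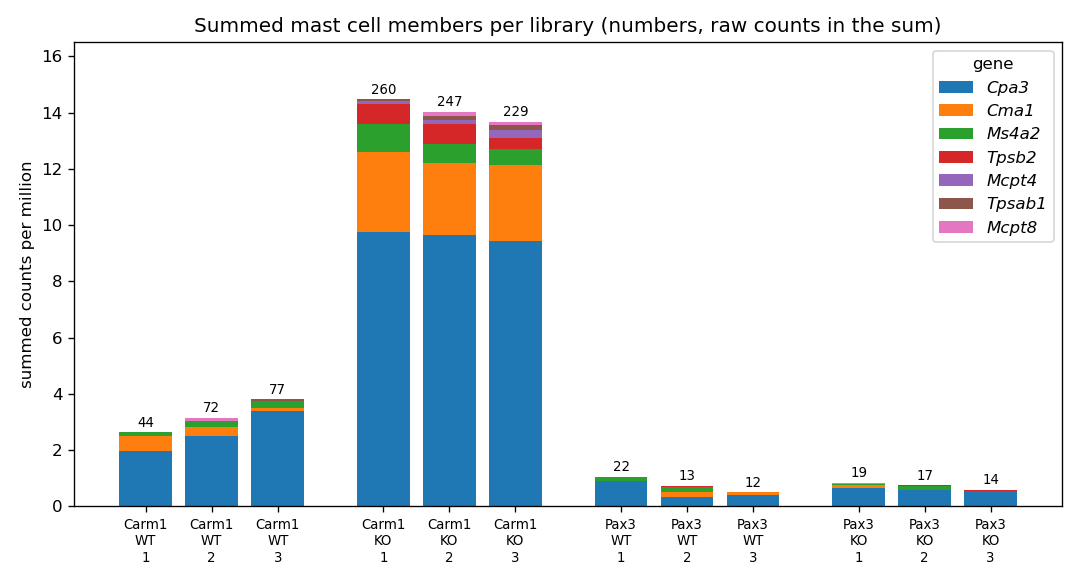
Stacked bars of CPM (y axis) for 7 members in each of the 12 libraries (x axis), with the raw counts in each sum printed above the bar and Fcer1a left out because it had no counts. The 3 Carm1 KO libraries reach 13.7 to 14.5 CPM with 229 to 260 counts, and no other library exceeds 3.8 CPM.

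In the Pax3 line the protease and receptor genes were near the limit of detection in both genotypes. Cpa3 had 15, 13 and 13 counts in Pax3 Sp2H/Sp2H libraries and 19, 6 and 10 in wild-type libraries. The mutant counts lay within the wild-type range. By edgeR's quasi-likelihood test the log2 fold change was 0.08 (SE 0.42, 95% interval -0.75 to 0.9, Benjamini-Hochberg adjusted P = 0.92), and its sign changed when single libraries were left out.

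The remaining proteases gave few counts. Cma1 had 2, 0 and 0 counts in the mutants and 0, 3 and 2 in the wild types, a ratio of 0.357 with a counting interval of 0.034 to 2.18. Tpsb2 had 0, 1 and 1 against 0, 1 and 0, and Mcpt8 had 1, 0 and 0 against 0 in every wild type. Mcpt4 and Tpsab1 had no counts in any of the 6 libraries. Ms4a2 had 1, 3 and 0 counts against 3, 3 and 0, a ratio of 0.595 with an interval of 0.124 to 2.51. No difference in these genes was detectable at this depth.

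Hdc had 20, 32 and 22 counts in the Pax3 Sp2H/Sp2H libraries and 32, 23 and 22 in the wild types. The groups overlapped, and the log2 fold change was -0.21 (SE 0.31, 95% interval -0.82 to 0.39, adjusted P = 0.66 by edgeR with Benjamini-Hochberg adjustment).

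Gata2 was the 1 member called in the Pax3 line, of the 3 that passed the filter (Cpa3, Hdc and Gata2). Its counts were 719, 674 and 674 in the mutants and 519, 428 and 591 in the wild types. In CPM the mutants, at 28.1 to 31.6, lay above the wild types, at 24.4 to 25.1, with no overlap. The log2 fold change was 0.27 (SE 0.08, 95% interval 0.12 to 0.43, adjusted P = 0.013 by edgeR with Benjamini-Hochberg adjustment), and without Pax3 Sp2H/Sp2H replicate 1 it was 0.24 with an adjusted P of 0.082. Among the 15724 genes tested in this line 14.0% were called higher and 10.5% lower, and 19.6% had every mutant library above every wild-type library. The 1 member called of 3 tested is too few to set against these shares.

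The lines also differed in level. The wild-type embryos of the Carm1 line had 2.63 ± 0.722 CPM of Cpa3 and those of the Pax3 line 0.562 ± 0.313 CPM, with no overlap between the 6 libraries. The summed 8 members were at 3.19 ± 0.582 CPM in the former and 0.774 ± 0.282 CPM in the latter. Hdc followed the same order (3.25 ± 1.2 and 1.27 ± 0.311 CPM), while Gata2 did not (24.1 ± 0.747 and 24.9 ± 0.385 CPM).

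Which other genes followed Cpa3 across the 12 libraries was asked by the root mean square difference of log2(CPM + 0.5), each gene centred on its own mean, over 14845 genes averaging 1 CPM or more. The 5 most similar genes outside the members were Rbm44 (0.354), Mpo (0.423), Rab44 (0.444), Ccr2 (0.482) and Ifi204 (0.503), where the median over all genes was 1.37 and the lowest 5% lay below 1.12. Rab44 codes for a large Rab GTPase, Ccr2 for a chemokine receptor of monocytes, and Mpo for the myeloperoxidase of neutrophil and monocyte precursors. Among the members Hdc was at 0.694 and Gata2 at 1.34. The other members, Cma1 among them, averaged less than 1 CPM and were not ranked. The libraries share 4 groups, so likeness over them reflects mostly the 4 group levels.

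Rbm44 averaged 3.25 CPM in embryos without Carm1 and 1.08 CPM in the wild types of that line, against 0.0566 and 0.0323 CPM in the mutants and wild types of the Pax3 line. Rab44 averaged 4.63, 2.04, 0.547 and 0.483 CPM in the same order. Ccr2 averaged 6.45, 2.39, 0.789 and 0.993 CPM, and Ifi204 averaged 2.92, 1.4, 0.244 and 0.0908 CPM. All 4 thus had their highest mean in Carm1 KO/KO embryos and low levels in both genotypes of the Pax3 line, which is the pattern they were ranked on.

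**Figure D3:**
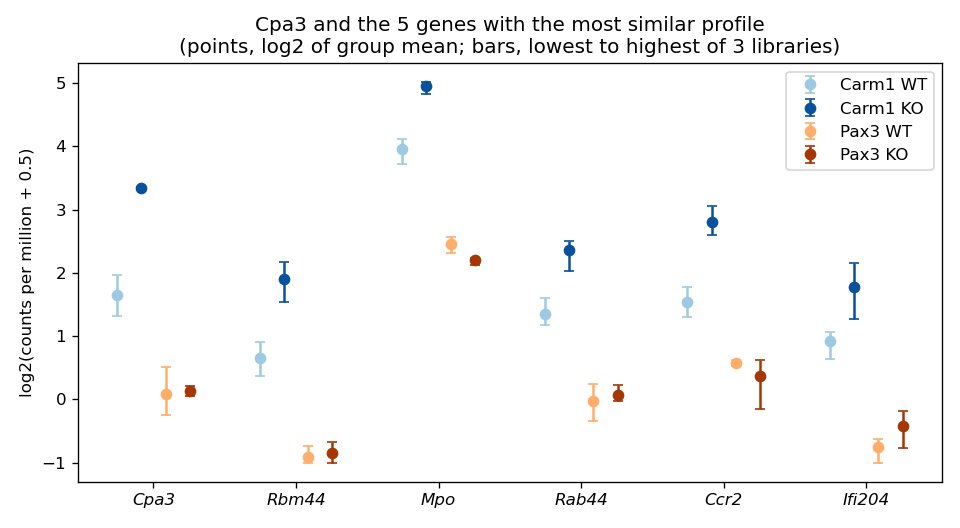
Group means of Cpa3 and the 5 genes ranked most similar to it, as log2(CPM + 0.5) on the y axis, with bars from the lowest to the highest of 3 libraries. Each gene is highest in Carm1 KO, lower in Carm1 WT and lowest in both groups of the Pax3 line.

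The wider mast cell pathway was taken as 54 further genes for granule contents, IgE receptor signalling, eicosanoid synthesis, growth and surface receptors, and transcription factors. In the Carm1 line 41 of them passed the filter, and by edgeR's test 4 were higher and 8 lower in KO/KO embryos, while 29 were not called. Across all genes of this line 5.49% were called higher and 7.83% lower. The median log2 fold change of the 41 was 0.05, beside 0.00 for all genes.

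None of the 3 granule genes tested, of 12 listed, passed the test. Srgn, the serglycin core protein, had a log2 fold change of 0.28 (SE 0.15, adjusted P = 0.22 by edgeR) and Slc18a2, the vesicular monoamine transporter, 0.13 (SE 0.09, adjusted P = 0.39 by edgeR). Ctsg, cathepsin G, was too rare to test, with 11, 6 and 9 counts in KO/KO and 5, 12 and 10 in wild-type libraries. The mast cell proteases of mucosal tissue were close to absent, with 1, 0 and 2 counts of Mcpt1 against 0 in wild-type libraries and 2, 1 and 2 counts of Mcpt2 against 0, 0 and 2.

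Of the 9 granule genes that did not pass the filter, 3 had every KO/KO library above every wild-type library in CPM, and these 3 were named after their values were seen. The same held for 14.4% of the genes that did pass the filter. Prss34, a serine protease of mast cells and basophils, had 9, 8 and 7 counts against 4, 1 and 4. Gzmb, granzyme B, had 9, 5 and 5 against 0, 4 and 3. Tph1, the first enzyme of serotonin synthesis outside the brain, had 10, 16 and 21 against 2, 8 and 7. Tpsg1, a tryptase, had 10, 15 and 7 against 8, 3 and 2, and its groups overlapped in CPM.

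Among 12 genes of IgE receptor signalling 1 was higher and none lower. That gene was Plcg2, the phospholipase C gamma of blood cells, with a log2 fold change of 0.38 (SE 0.13, adjusted P = 0.042 by edgeR). It falls outside the 10 pathway genes with the smallest P, is named because the count is small, and lost its call in 6 of 14 alternative fits. Fcer1g, the gamma chain that the receptor shares with other Fc receptors, was at 7.93 ± 0.387 against 7.21 ± 1.36 CPM, a log2 fold change of 0.13 with an adjusted P of 0.6. None of the 5 tested eicosanoid genes was called.

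Of 9 tested growth and surface genes 3 were higher. Cd34, a sialomucin of blood progenitors, mast cells and endothelium, was at 67.6 ± 0.817 against 51.1 ± 1.12 CPM (log2 fold change 0.40, SE 0.05, edgeR adjusted P = 1.5e-06). Enpp3, a surface enzyme of mast cells and basophils also made in other tissues, was at 10.7 ± 1.85 against 7.6 ± 0.095 CPM (log2 fold change 0.48, SE 0.13, edgeR adjusted P = 0.0098). Kit, the receptor on which mast cells depend, was at 51.4 ± 0.676 against 45.2 ± 2.87 CPM (log2 fold change 0.19, SE 0.06, edgeR adjusted P = 0.031), and this call was lost in 7 of 14 alternative fits. Its ligand gene Kitl had a log2 fold change of -0.15 (SE 0.07, edgeR adjusted P = 0.12).

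The transcription factors moved the other way. Of the 12, 8 were lower in KO/KO embryos and none was higher, with a median log2 fold change of -0.36. Tal1, a factor of blood stem cells and red cells, was at 54.9 ± 2.2 against 81.9 ± 2.36 CPM (log2 fold change -0.58, SE 0.05, edgeR adjusted P = 9.7e-10). Gata1, which acts in red cells, megakaryocytes, eosinophils and mast cells, was at 13.6 ± 2.51 against 21.0 ± 0.607 CPM (log2 fold change -0.62, SE 0.10, edgeR adjusted P = 4.7e-05). The others were Lmo2 at -0.42, Zfpm1 at -0.34, Runx1 at -0.40, Ikzf1 at -0.37, Cebpa at -0.45 and Lyl1 at -0.31, of which Cebpa and Lyl1 each lost the call in 6 of 14 alternative fits. Each of these factors is also made in blood cells other than mast cells. Mitf, a factor of mast cells and pigment cells, was not called, with a log2 fold change of 0.08 (SE 0.15, edgeR adjusted P = 0.79).

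**Figure D4:**
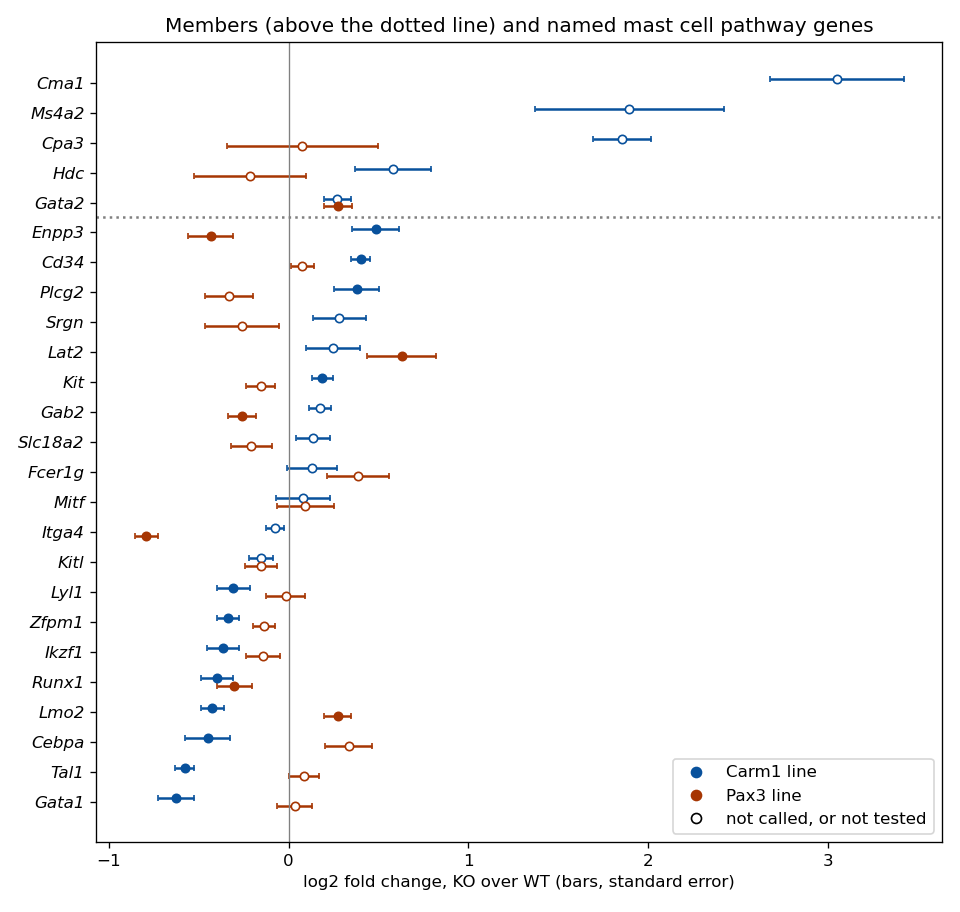
Log2 fold change of mutant over wild type (x axis, bars for the standard error) for the members that passed the filter, above the dotted line, and for pathway genes below it, with the Carm1 line in blue and the Pax3 line in brown. Filled points passed the edgeR test, and members of the Carm1 line are open because they were not tested. Members reach 3.05 in the Carm1 line, while the 20 pathway genes plotted lie between -0.62 and 0.48 there.

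In the Pax3 line 40 pathway genes were tested, of which 2 were higher, 4 lower and 34 not called. Neither count made up a larger share of the genes tested than over all genes of this line, where 14.0% were higher and 10.5% lower. Itga4, the integrin alpha 4 chain, was at 46.3 ± 3.06 CPM in Pax3 Sp2H/Sp2H and 80.6 ± 6.36 CPM in wild-type embryos (log2 fold change -0.79, SE 0.07, edgeR adjusted P = 1.6e-09). Enpp3 was lower (log2 fold change -0.43, SE 0.12, edgeR adjusted P = 0.012), as were Gab2, a signalling adaptor (-0.26), and Runx1 (-0.30). Lmo2 (0.27) and Lat2, a linker of receptor signalling (0.63), were higher. Apart from Itga4, each of these calls was lost in 1 to 3 of 14 alternative fits. Kit had a log2 fold change of -0.16 (SE 0.08, edgeR adjusted P = 0.16), Fcer1g of 0.39 (SE 0.17, edgeR adjusted P = 0.1) and Gata1 of 0.03 (SE 0.10, edgeR adjusted P = 0.84).

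Markers of other cells of a whole embryo were set beside the members. In the Carm1 line 8 of 78 tested marker genes were higher and 21 lower, which is 10.3% and 26.9% beside 5.49% and 7.83% of all genes. The lower ones include Tal1, which was also counted in the pathway list. Of 75 in the Pax3 line 8 were higher and 7 lower, which is 10.7% and 9.33% beside 14.0% and 10.5% of all genes. Of the 8 pan-haematopoietic genes 3 were higher and none lower in Carm1 KO/KO embryos, and their summed level was 116 to 129 CPM against 100 to 107 CPM. Coro1a, an actin regulator of blood cells, rose by 0.24 on the log2 scale (SE 0.08, edgeR adjusted P = 0.036), a call lost in 7 of 14 alternative fits, and Arhgdib had a log2 fold change of 0.17 (SE 0.07, edgeR adjusted P = 0.14). Over the whole list the median change was 0.20 on the log2 scale.

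Other granulocyte genes did not all follow the members. Of the 8 neutrophil genes, Mpo was higher in Carm1 KO/KO embryos, at 30.5 ± 2.18 against 15.0 ± 2.09 CPM (log2 fold change 1.03, SE 0.09, edgeR adjusted P = 7.7e-10). Ltf, Ngp and Camp, 3 genes of late neutrophil granules that were named after their values were seen, were lower, with log2 fold changes of -1.10, -0.91 and -1.07. The call of Camp was lost in 9 of 14 alternative fits and that of Ngp in 3, while Ltf was called in all 14. S100a9, a calcium-binding protein of mature neutrophils, had a log2 fold change of -0.74 (SE 0.39, edgeR adjusted P = 0.12). The eosinophil genes Prg2 and Epx, granule proteins of that cell, had log2 fold changes of -0.19 (edgeR adjusted P = 0.49) and 0.22 (edgeR adjusted P = 0.7), and both groups of the Carm1 line overlapped in their summed level, at 8.75 to 10.7 against 8.86 to 13.7 CPM. In the Pax3 line that sum was 0.0446 to 0.527 CPM in mutants and 0.228 to 0.339 CPM in wild types.

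Macrophage markers summed to 136 to 157 CPM without Carm1 and to 137 to 152 CPM with it, and of 11 tested none was higher and 2 were lower. The 2 most abundant, Csf1r and Mrc1, had log2 fold changes of 0.19 (edgeR adjusted P = 0.12) and -0.19 (edgeR adjusted P = 0.062). Of 8 megakaryocyte genes 2 were lower and none higher, including Pf4, a platelet chemokine (-0.80, edgeR adjusted P = 2.4e-07), while Itga2b had a log2 fold change of -0.23 (edgeR adjusted P = 0.17). Endothelial cells also make Gata2 and Cd34, and their markers summed to 367 to 387 CPM against 336 to 369 CPM, with 2 of 8 higher and none lower, and the most abundant, Cdh5 and Kdr, were not called (0.09 and 0.07). The part of endothelium in Gata2 was not tested.

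Liver and most red cell genes were lower in the same KO/KO libraries. Of 8 hepatocyte genes 7 were lower, with a summed level of 734 to 857 CPM against 1390 to 1690 CPM, and Afp and Alb were lower, with log2 fold changes of -0.66 and -1.41 (edgeR adjusted P = 2.2e-07 and 0.0079). Of 9 tested erythroid genes 6 were lower and 1 higher, and the embryonic globin genes Hbb-y and Hba-x, the most abundant of the list, had log2 fold changes of -0.05 (edgeR adjusted P = 0.94) and 1.10 (edgeR adjusted P = 0.077). The part of liver and blood composition in the members' values was not tested.

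Gata2 is also a gene of neurons. The sympathetic list had no gene called among 7 in the Carm1 line, at 121 to 128 against 118 to 123 CPM, and 1 higher and 1 lower in the Pax3 line, at 128 to 134 against 116 to 126 CPM. Of 6 genes of spinal V2 interneurons, 1 was higher and 1 lower in the Carm1 line, and 1 was higher in the Pax3 line. The lower gene was Tal1, the blood factor already counted among the lower pathway genes. The part of these neurons in the higher Gata2 of the Pax3 line was not tested. Melanoblast genes, which share Kit and Mitf with mast cells, had none called of 4 in the Carm1 line. In the Pax3 line 1 of 5 was lower and the other 4 were not called. That gene was Sox10, a neural crest factor (log2 fold change -0.89, edgeR adjusted P = 7.8e-08). It was at 15.3 ± 1.45 CPM in mutants and 28.7 ± 2.75 CPM in wild types. The list summed to 22.3 to 25.7 CPM in mutants against 36.5 to 41.2 CPM in wild types, a difference that was mostly Sox10. Pmel, a pigment granule protein, had a log2 fold change of -0.20 (edgeR adjusted P = 0.38).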

How the data were processed

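Poly(A) RNA of 12 whole embryos was sequenced as paired reads of 150 bases. The deposited values are raw counts per gene and library, which the authors made by aligning reads to mm10 with STAR and counting them with featureCounts, without normalization or pooling. Tool versions, strandedness and how reads with several alignments were handled are not given in the sources used here. Groups and replicate numbers came from the sample labels, and 1 embryo is 1 replicate.

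The members, the gene lists and the tests were chosen with earlier results of these data known. Each line was fitted on its own in R 4.3.3 using edgeR 4.0.16 (glmQLFit, robust, and glmQLFTest) after TMM scaling and filterByExpr, with Benjamini-Hochberg adjustment over all genes tested and a threshold of 0.05, on 15811 genes in the Carm1 line and 15724 in the Pax3 line. CPM used TMM sizes over all 12 libraries. In the Carm1 line no P is given for members. The functions were tested on simulated data. Intervals of counting ratios and shares are exact 95% intervals, and a count of 0 was bounded by 3 counts. Standard errors of edgeR fold changes were calculated back from the fold change and the F statistic of its test. The 95% intervals of fold changes use a normal approximation on these errors, so both are approximate. DESeq2 1.42.0, other scalings and filters, 1 joint fit, a block for replicate number, a term for Y-linked counts, and leaving out each library were tried. In the Carm1 line the term for Y-linked counts marks wild-type replicate 3 alone. It therefore nearly repeats the fit without that library, and the counts of lost calls in this line hold both. Sex was not separated from that library. The difference between the lines was tested over all genes of 1 joint fit, is reported for pathway genes only and was added after the data were seen.

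Named genes were all members, the targeted genes, Kit, Kitl, Mitf, Fcer1g, Srgn, Ctsg, Gata1 and Slc18a2, up to 10 called pathway genes per line by smallest P, the 2 most abundant genes of each marker list, and the 5 genes most like Cpa3, and genes outside this rule are named as such. Of the listed symbols 2 were found under an older name, and 1 marker was not listed. Promoters came from RefSeq (GRCm38.p6) and gene positions from GENCODE of the same build. Promoters matched 8 of the 10 members.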

Additional observations from a re-analysis of the deposited data

Results flagged for a closer look

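The effects of the mutations on 11 of 43 pathway genes (25.6%) differed between the lines by a test of the difference itself, the Carm1 log2 fold change minus the Pax3 log2 fold change, in 1 edgeR fit of all 12 libraries with Benjamini-Hochberg adjustment over 16292 genes, of which 3115 passed (19.1%). The other 32 pathway genes did not pass. The members were left out of this test, since they were chosen on the Carm1 comparison. The difference was positive for Enpp3 at 0.93 (SE 0.18, adjusted P = 0.00035), Itga4 at 0.72 (SE 0.09, adjusted P = 4.1e-07) and Plcg2 at 0.72 (SE 0.18, adjusted P = 0.0049). It was also positive for Gab2 at 0.45 (SE 0.09, adjusted P = 0.00079), Kit at 0.35 (SE 0.10, adjusted P = 0.012) and Cd34 at 0.34 (SE 0.08, adjusted P = 0.0024). Among transcription factors it was negative for Cebpa at -0.77 (SE 0.18, adjusted P = 0.0027), Lmo2 at -0.69 (SE 0.09, adjusted P = 5e-06), Tal1 at -0.66 (SE 0.10, adjusted P = 5.9e-05) and Gata1 at -0.65 (SE 0.15, adjusted P = 0.0023). The 11 also include Tph1, at 2.65, which had too few counts to be tested within either line. Tph1 passed the filter of the joint fit through its 10, 16 and 21 counts in Carm1 KO/KO libraries. Its P is therefore not given, and its place among the 11 is not a result. Enpp3 and Lmo2 passed the test in both lines with opposite signs, higher and lower in Carm1 KO/KO and lower and higher in Pax3 Sp2H/Sp2H embryos. Strain and colony differ with the line and cannot be told apart from the mutation.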

How the results depend on the processing

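In the Carm1 line between 7 and 9 members had every KO/KO above every wild-type library under the 14 alternatives. The block for replicate number and the term for Y-linked counts leave library sizes as they were. Leaving out a library leaves fewer values to separate. Most alternatives could thus hardly lower this count, which only describes members selected on this difference. The fitted log2 fold changes of Cpa3 (1.71 to 2.08), Cma1 (2.62 to 3.51), Ms4a2 (1.65 to 2.07), Hdc (0.31 to 0.90) and Gata2 (0.22 to 0.34) kept their sign in every alternative that fitted them, which was 13 for Cma1 and Ms4a2, removed by the minimum of 10 counts in every library, and 14 for the others. Marker genes called ranged from 22 to 31 in the Carm1 line (main value 29) and from 11 to 20 in the Pax3 line (main value 15). Leaving out 1 library at a time, the pathway genes called ranged from 7 to 13 in the Carm1 line (main value 12, lowest without KO/KO replicate 2, where Plcg2, Kit, Enpp3, Lyl1 and Cebpa were lost). They ranged from 3 to 8 in the Pax3 line (main value 6, lowest without wild-type replicate 1, where Lat2, Enpp3 and Runx1 were lost). The members called in the Pax3 line ranged from 0 to 1, and of the 14 alternatives only the edgeR fit without Pax3 Sp2H/Sp2H replicate 1 lost the call of Gata2, where its unadjusted P was 0.017 and 1 member was under 0.05 unadjusted. The adjusted P of Gata2 ranged from 0.009 to 0.082 over the alternatives, and DESeq2 called it with all libraries. In the Pax3 line the fold change of Cpa3 was -0.125 with a term for Y-linked counts and -0.135 to 0.61 without single libraries, Lyl1 was 0.029 with that term and -0.191 to 0.068 without single libraries, and Gata1 was -0.027 to 0.116 without single libraries, none called. DESeq2 gave no adjusted P for Cpa3 and Hdc in the Pax3 line. The GATA letters without flanking bases were in 7 promoters in place of 6. With the replicate number as a block (replicate block), 12 pathway genes were called in the Carm1 line and 7 in the Pax3 line, where Cebpa was added, and 1 member, Gata2, was called in the Pax3 line. Deviations of libraries with the same number had correlations of -0.0501, -0.0188 and -0.0468 in the Carm1 line. In the Pax3 line they were 0.268, -0.233 and 0.424, and mutant replicates 1 and 3 correlated best with the wild type of their own number. So few correlations cannot decide whether the numbers pair the embryos, and the labels give no pairing. Members with fewer than about 10 counts per library are limited by depth.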
